A study of Bos grunniens with 6 samples.

Results

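The genes described here are the ribosomal protein genes of the cytosol and of the mitochondrion in cultured yak hair follicle cells. Members are the rows of the gene table whose pathway annotation holds the entry Ribosome, 216 of 15646 rows. Of these, 157 rows carry a cytosolic symbol (beginning with RPL or RPS), 36 carry a mitochondrial symbol (MRPL or MRPS), and 23 carry another symbol, most of them an older name of a ribosomal protein. The tested cells were dermal papilla cells (DPC), mesenchymal cells that sit in the follicle base, and they were set against hair matrix cells (HMC), the dividing epithelial cells that surround the papilla and form the hair shaft. Both were isolated from the skin of wild-type yak (Bos grunniens) and cultured in DMEM/F12 with 10% FBS, 20 ng/mL EGF and 10 ng/mL IGF1, and 3 samples of each were sequenced. The labels call the samples biological replicates without saying whether they came from separate animals, so p-values measure the spread between these samples only. Values are FPKM, fragments scaled to gene length and to the size of the library.

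The ribosome is built from ribosomal RNA and a set of proteins divided between a small subunit, which decodes the mRNA, and a large subunit, which joins the amino acids. The cytosolic ribosome translates nearly all mRNAs of the nucleus, and its protein mRNAs are among the most abundant of growing cells. They start with a 5′ terminal oligopyrimidine tract through which mTOR and LARP1 control their translation, and their genes are known targets of MYC. The mitochondrial ribosome is made of other proteins, encoded in the nucleus and imported, and translates the few mRNAs of the mitochondrial genome. In the follicle the matrix is a fast-dividing tissue, while papilla cells rarely divide in place.

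Depth was even, with 13098760 to 13999664 reads recovered over the 6 libraries. The FPKM of all genes summed to 548897 to 554803 over the DPC libraries, against 647963 to 651773 over the HMC libraries. An FPKM is therefore not the same share of the total in both cell types, and values are also given after median-of-ratios scaling, which sets the typical gene equal between libraries. All 5 tested mesenchymal markers, COL1A1 among them, were higher in DPC, and their summed level was 15453 to 16066 FPKM in DPC against 507 to 613 FPKM in HMC. All 5 tested epithelial markers were higher in HMC. Their summed level was 40.0 to 55.5 FPKM in DPC, most of it KRT5, against 4811 to 5103 FPKM in HMC. Melanocyte, immune and endothelial markers had 4 of 10 genes in the table, and these summed to at most 1.53 FPKM in DPC against 1.44 FPKM in HMC.

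The cytosolic rows are more numerous than the proteins they name. The 157 rows carry 72 symbols, of which 29 have 1 row and 43 have several, up to 6 for RPL23A and RPS15A. For each symbol the row with the highest mean is called its leading row. The 72 leading rows had a median of 387 FPKM and the 85 further rows a median of 2.34 FPKM, and 71 cytosolic rows averaged under 20 FPKM. The leading rows held 94.8% ± 0.055 of the cytosolic FPKM in DPC and 94.6% ± 0.14 in HMC (SD, n = 3 each). Ribosomal proteins have many near-identical gene copies, and the sources used here do not say how reads shared between copies were counted, so the value of a single row is uncertain. The pathway entry also misses rows. Among 6 symbols with their most abundant row outside it are RPL12, RPL22L1, RPL39, RPL4 and RPL37, and RPL18 and RPL7L1 are found only outside it. Of the 216 members, 189 passed the filter of a mean of at least 0.5 FPKM and were tested, including all 36 mitochondrial rows and 69 of the 72 leading rows.

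Cytosolic ribosomal protein mRNA was lower in DPC than in HMC. The summed FPKM of the cytosolic members was 44405, 45105 and 44428 in the DPC libraries, against 58323, 57714 and 57924 in the HMC libraries. The groups lay far apart and each varied little, with means of 44646 ± 397 in DPC and 57987 ± 309 in HMC (SD, n = 3 each), a level 1.30 times as high in HMC. After median-of-ratios scaling the sums were 46985 ± 538 in DPC and 54744 ± 788 in HMC, 1.17 times as high in HMC. As a share of all FPKM the cytosolic members took 8.08% ± 0.117 in DPC and 8.93% ± 0.0304 in HMC. In bulk RNA, fewer cells that express a gene and less of its RNA per cell cannot be told apart, and the RNA content of a cell was not measured.

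**Figure D1:**
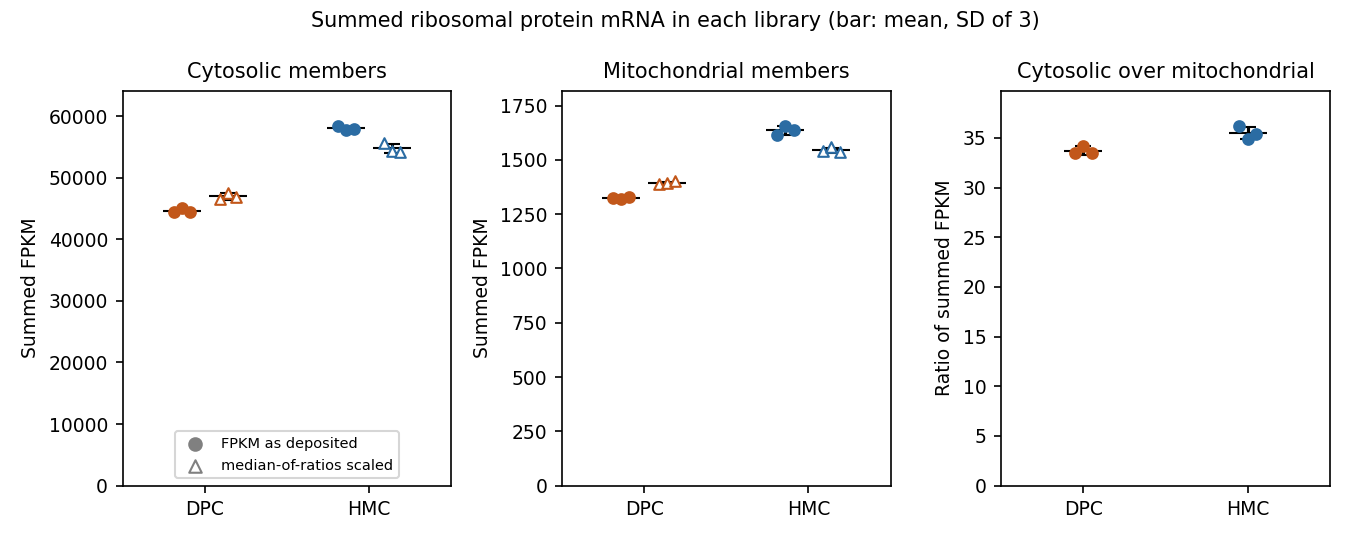
Summed FPKM of the cytosolic members (left), of the mitochondrial members (middle) and the ratio of both sums (right) in each of 3 DPC and 3 HMC libraries, with the mean and SD as black bars. Circles are FPKM as deposited and triangles are values after median-of-ratios scaling, which brings the cytosolic means to 46985 in DPC and 54744 in HMC and does not touch the ratio.

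Gene by gene the direction was nearly uniform with FPKM as deposited. Of 69 tested leading rows, 0 were higher in DPC and 59 higher in HMC by limma at an adjusted p of 0.05, and 67 had a negative log2 difference. The background was high in this comparison, in which 29.7% of all 11883 tested genes were called higher in DPC and 46.2% higher in HMC, 75.9% in all. The share of leading rows higher in HMC was 85.5%. The median log2 difference of the leading rows was -0.38, against -0.15 for all tested genes. The values of the groups did not overlap for 56 of the 69 leading rows, a share close to the 77.9% of all tested genes. Over all 134 tested cytosolic rows, copies included, 2 were higher in DPC and 83 higher in HMC, with a median of -0.32. The count of 2 was 4 without DPC replicate 1 and 1 without HMC replicate 1.

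After median-of-ratios scaling 1 leading row was higher in DPC and 46 were higher in HMC, with a median of -0.22 against -0.018 for all genes. Under that scaling 36.3% of all genes were called higher in DPC and 38% higher in HMC. The differences of single proteins were small, since 1 of the 69 leading rows was called with a difference of at least 2-fold, RPS27L. Under each of 4 scalings (FPKM as deposited, median-of-ratios, TPM and quantile), 0 leading rows were higher in DPC and 36 higher in HMC. Of all genes, 40.1% were called higher in DPC and 34.3% higher in HMC on the TPM scale. After quantile normalization these shares were 39.9% and 34.3%. The share of all genes called under all 4 scalings together was not counted.

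**Figure D2:**
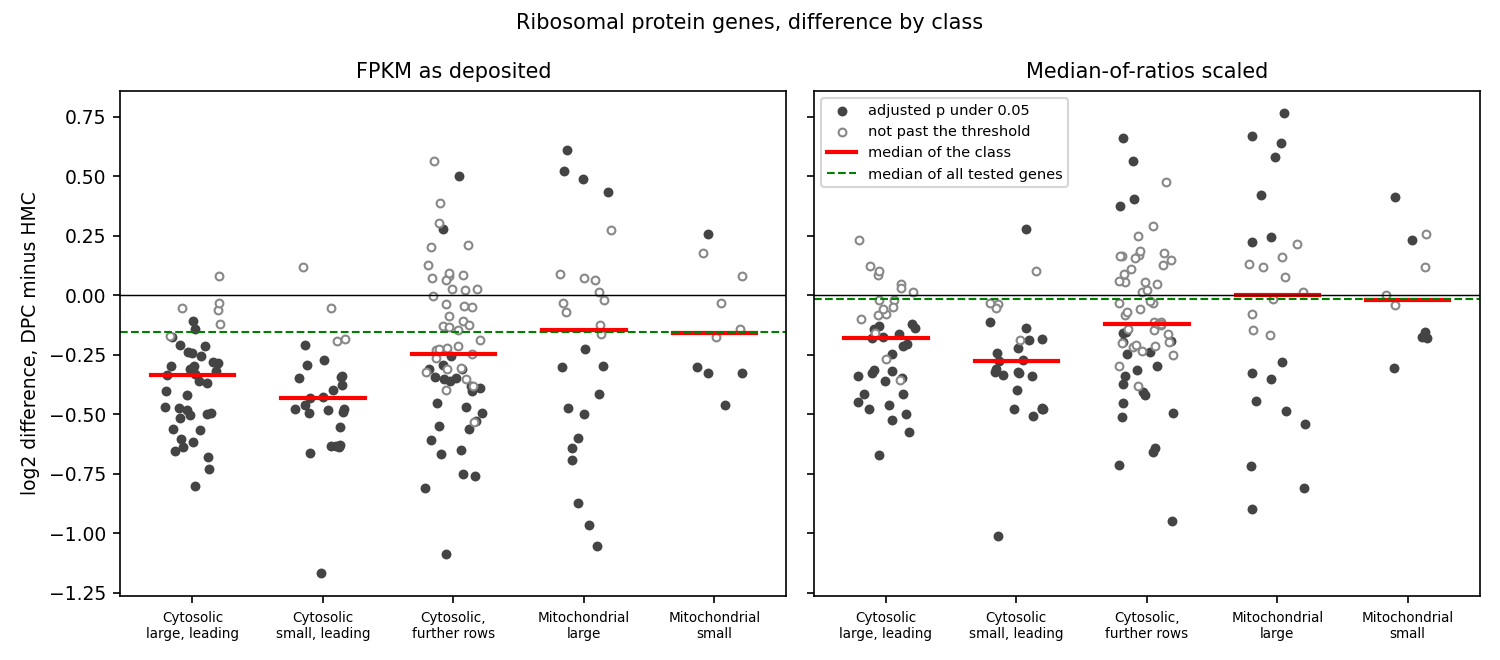
The log2 difference (DPC minus HMC) of each tested member by class, with FPKM as deposited (left) and after median-of-ratios scaling (right). The red bars (class medians) of the leading cytosolic rows lie below the green line (median of all tested genes, -0.15 left and -0.018 right), while those of the mitochondrial rows lie on or near it.

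The median difference was larger in the small subunit than in the large one, a gap that was not tested gene by gene. The 27 tested leading rows of the small subunit had a median log2 difference of -0.43, with 23 higher in HMC, and the 42 of the large subunit a median of -0.33, with 36 higher in HMC. Summed over all rows, small subunit members stood at 16378 ± 327 FPKM in DPC against 22274 ± 160 FPKM in HMC, and large subunit members at 28268 ± 130 FPKM in DPC against 35713 ± 281 FPKM in HMC (SD, n = 3 each). The ratio of large to small was 1.76, 1.70 and 1.72 in DPC, against 1.60, 1.59 and 1.62 in HMC. The groups did not overlap in this ratio, which a single factor per library cannot change, and no test was made of it.

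Among small subunit proteins the largest difference was that of RPS27L (ENSBGRG00000003772), a paralog of RPS27. It stood at 70.4, 69.8 and 73.8 FPKM in DPC, against 154, 163 and 168 FPKM in HMC. All 3 DPC values were under the lowest HMC value by a wide margin (log2 difference -1.17, SE 0.05, limma adjusted p = 7.29e-08), and the difference was -1.01 after median-of-ratios scaling. RPS27 itself did not pass the threshold, with 64.6, 95.5 and 61.7 FPKM in DPC against 68.7, 85.2 and 96.0 FPKM in HMC, values that overlap (limma adjusted p = 0.366). A further row of the same symbol, written rps27, lay at 5.82 ± 1.40 FPKM in DPC against 13.5 ± 2.92 FPKM in HMC (log2 difference -1.09, limma adjusted p = 0.000785).

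RPS2 and RPS3, which line the channel where mRNA enters the ribosome, were both lower in DPC. RPS2 stood at 1494, 1442 and 1438 FPKM in DPC, against 2373, 2284 and 2148 FPKM in HMC (log2 difference -0.64, SE 0.04, limma adjusted p = 1.3e-06). The DPC libraries lay together below all HMC libraries. RPS3 has 2 rows, whose log2 differences of -0.63 and -0.67 were alike although their levels were not. The more abundant row stood at 576, 593 and 575 FPKM in DPC against 921, 904 and 883 FPKM in HMC, and the other at 235, 240.0 and 228 FPKM in DPC against 394, 375 and 350.0 FPKM in HMC. Rps29, a small zinc-binding protein and the most abundant of the small subunit here, stood at 2187, 2334 and 2247 FPKM in DPC against 3150, 3198 and 3085 FPKM in HMC. Its log2 difference was -0.48 (SE 0.03, limma adjusted p = 1.58e-06) and its groups did not overlap.

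RPS6, the small subunit protein that the kinase S6K phosphorylates, stood at 966, 988 and 971 FPKM in DPC against 1200, 1191 and 1194 FPKM in HMC (log2 difference -0.29, limma adjusted p = 9.77e-06), but did not pass on the TPM scale (-0.059, limma adjusted p = 0.0660). The leading row of RPS4, an older name of the RPS4X and RPS4Y genes, stood at 238 ± 4.44 FPKM in DPC against 369 ± 16.3 FPKM in HMC. The row called RPS4X stood at 314 ± 3.72 FPKM in DPC against 398 ± 11.6 FPKM in HMC. Their log2 differences were -0.63 and -0.34. One low copy of RPS4 (ENSBGRG00000015272) went the other way, at 4.95 ± 0.273 FPKM in DPC against 3.92 ± 0.401 FPKM in HMC (log2 difference 0.28, limma adjusted p = 0.0182). It did not pass the threshold without DPC replicate 2 (limma adjusted p = 0.0625) or without HMC replicate 1 (limma adjusted p = 0.058).

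In the large subunit, RPL23A, which sits at the mouth of the exit tunnel where the signal recognition particle docks, stood at 1523, 1457 and 1549 FPKM in DPC against 2316, 2274 and 2450 FPKM in HMC. The DPC values were all below the HMC values (log2 difference -0.64, SE 0.04, limma adjusted p = 8.91e-07). A pair of low copies of RPL23A differed in the same direction, by -0.76 and -0.75 on the log2 scale, at mean levels of 2.28 and 1.01 FPKM in DPC against 4.55 and 2.44 FPKM in HMC. Another low copy of RPL23A (ENSBGRG00000000686), at 0.993 FPKM in DPC against 0.629 FPKM in HMC, had a log2 difference of 0.30 (limma adjusted p = 0.0938). It was called higher in DPC after median-of-ratios scaling (0.37, limma adjusted p = 0.0439), on the TPM scale (0.53, limma adjusted p = 0.0339) and after quantile normalization (0.45, limma adjusted p = 0.0237). RPL28 stood at 227 ± 4.77 FPKM in DPC against 357 ± 1.36 FPKM in HMC, and Rpl38, needed in mouse for translation of homeobox mRNAs, at 170 ± 2.56 FPKM in DPC against 261 ± 3.16 FPKM in HMC (SD, n = 3 each). Their log2 differences were -0.65 and -0.62. RPL36A (Rpl44) had one of -0.68, with 158 ± 9.5 FPKM in DPC against 253 ± 7.77 FPKM in HMC.

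RPL5, RPL11 and RPL23 are among the ribosomal proteins known to bind the ubiquitin ligase MDM2 when ribosome assembly fails. RPL5 stood at 254, 270 and 262 FPKM in DPC against 320, 325 and 365 FPKM in HMC (log2 difference -0.36, limma adjusted p = 0.000384). It did not pass on the TPM scale (-0.13, limma adjusted p = 0.0735) or after quantile normalization (-0.099, limma adjusted p = 0.184). Rpl23 stood at 773, 826 and 779 FPKM in DPC against 1004, 987 and 1001 FPKM in HMC (log2 difference -0.33, limma adjusted p = 2.73e-05). For both genes, every DPC library lay below every HMC library in FPKM as deposited. RPL11 is not analysed here.

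The stalk, which recruits elongation factors to the large subunit, is made of RPLP0, RPLP1 and RPLP2. RPLP1 was the most abundant member of all, with 2840, 2973 and 2859 FPKM in DPC against 3628, 3483 and 3413 FPKM in HMC, and its groups did not overlap (log2 difference -0.28, SE 0.03, limma adjusted p = 5.93e-05). The difference of RPLP1 was -0.045 on the TPM scale (limma adjusted p = 0.232) and -0.044 after quantile normalization (limma adjusted p = 0.128), neither of which passed. RPLP0 stood at 1502, 1319 and 1347 FPKM in DPC against 1695, 1634 and 1643 FPKM in HMC. The highest DPC library of RPLP0 was still below the lowest HMC library, and the difference of -0.26 (limma adjusted p = 0.00145) became -0.10 after median-of-ratios scaling and no longer passed the threshold (limma adjusted p = 0.0945). RPLP2, listed as D11S2243E at 39.0 ± 9.34 FPKM in DPC against 50.0 ± 6.61 FPKM in HMC, did not pass the threshold (log2 difference -0.37, limma adjusted p = 0.0642). It passed by voom on the recovered reads (-0.38, limma adjusted p = 0.0346). Without DPC replicate 2, the highest DPC library for this gene, the difference was -0.55 (limma adjusted p = 0.00257).

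**Figure D3:**
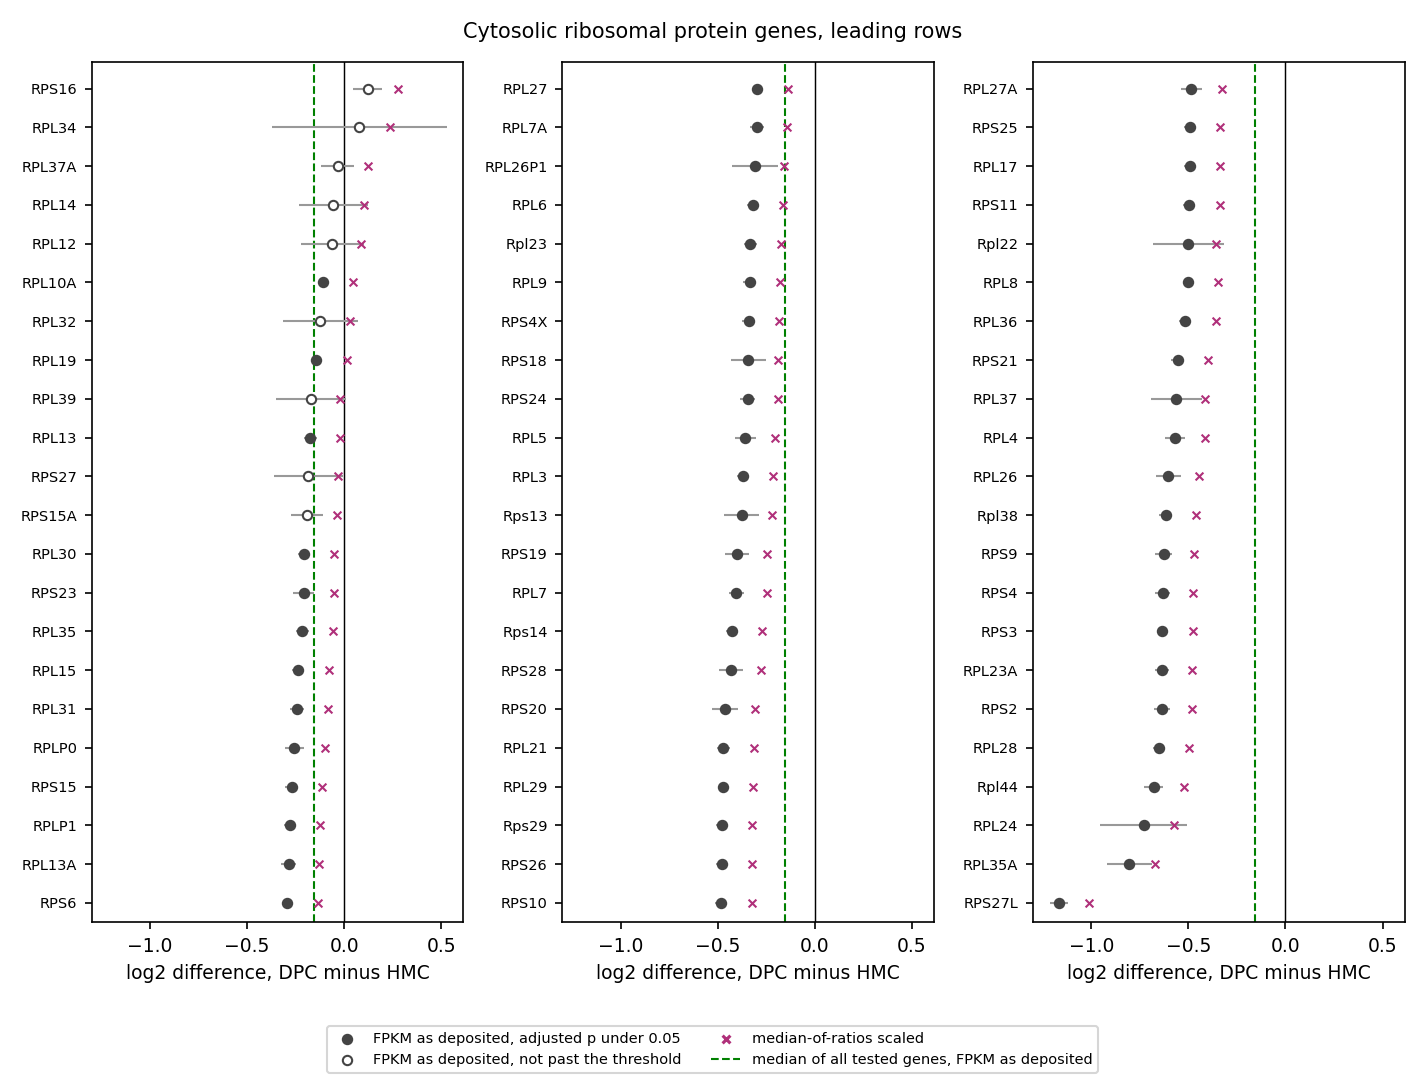
The log2 difference (DPC minus HMC) of 66 of the 69 tested leading rows of cytosolic ribosomal proteins, from highest to lowest down each column and then across the columns, with SE bars. Filled circles passed the threshold, crosses are values after median-of-ratios scaling and the green line is the median of all tested genes, and all filled circles lie below 0.

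Of the leading rows 10 did not pass the threshold, among them RPS16, RPL34, RPL37A, RPL14, RPL12, RPL32, RPL39, RPS27 and RPS15A. RPS16, which lies in the head of the small subunit, stood at 621, 753 and 616 FPKM in DPC against 595, 605 and 623 FPKM in HMC, and DPC replicate 2 was the library that stood apart. Its log2 difference was 0.12 (limma adjusted p = 0.168), and after median-of-ratios scaling it was 0.28 (limma adjusted p = 0.00926), the only leading row called higher in DPC there. The groups also overlapped for RPL37A, at 345 ± 48.1 FPKM in DPC against 351 ± 6.01 FPKM in HMC (log2 difference -0.03, SE 0.09, limma adjusted p = 0.736).

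Replicates were tight for most proteins, and a few stood out. The median SD of log2 values within a group was 0.049 over the tested leading rows. Of 64 leading rows averaging at least 20 FPKM, 7 had an SD of 0.15 or more, among them RPL14, RPL24, RPL32, RPL34, RPL39 and RPS27. RPL34, a large subunit protein, stood at 170, 196 and 73.5 FPKM in DPC against 95.6, 91.2 and 238 FPKM in HMC. DPC replicate 3 was low and HMC replicate 3 high, so the groups overlap fully (log2 difference 0.08, SE 0.45, limma adjusted p = 0.880). RPL24, which reaches from the large to the small subunit, stood at 126, 169 and 122 FPKM in DPC against 279, 273 and 156 FPKM in HMC. It passed the threshold (log2 difference -0.73, SE 0.22, limma adjusted p = 0.0174) although HMC replicate 3 lay below the highest DPC library. After median-of-ratios scaling RPL24 was close to the threshold (limma adjusted p = 0.0498), and it did not pass on the TPM scale (limma adjusted p = 0.0770) or after quantile normalization (limma adjusted p = 0.0908). RPL32 had 174, 141 and 179 FPKM in DPC against 215, 207 and 127 FPKM in HMC, again with HMC replicate 3 at the low end.

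Close relatives of ribosomal proteins were called in both directions. RPL22L1 is a paralog of RPL22 that can take its place in the ribosome, and its most abundant row lies outside the pathway. It stood at 56.7, 62.5 and 59.3 FPKM in DPC against 32.7, 50.6 and 28.8 FPKM in HMC. All DPC libraries were above the highest HMC library (log2 difference 0.70, SE 0.18, limma adjusted p = 0.00735). Rpl22 went the other way, at 9.40 ± 2.32 FPKM in DPC against 13.6 ± 2.84 FPKM in HMC (log2 difference -0.50, limma adjusted p = 0.0352), but no longer passed after median-of-ratios scaling (limma adjusted p = 0.105). RPL7L1, a relative of RPL7 known from ribosome assembly, was also higher in DPC, with 75.4, 79.3 and 78.5 FPKM in DPC against 72.6, 69.0 and 66.9 FPKM in HMC (log2 difference 0.16, limma adjusted p = 0.0140). RPL7 stood at 1186 ± 26.6 FPKM in DPC against 1569 ± 69.9 FPKM in HMC (log2 difference -0.40, limma adjusted p = 1.77e-05). RPL3L, the striated muscle form of RPL3, averaged 0.0198 FPKM in DPC against 0.0253 FPKM in HMC and was not tested. With RPS27L, 3 paralogs were tested, 2 of them higher in DPC and 1 higher in HMC.

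**Figure D4:**
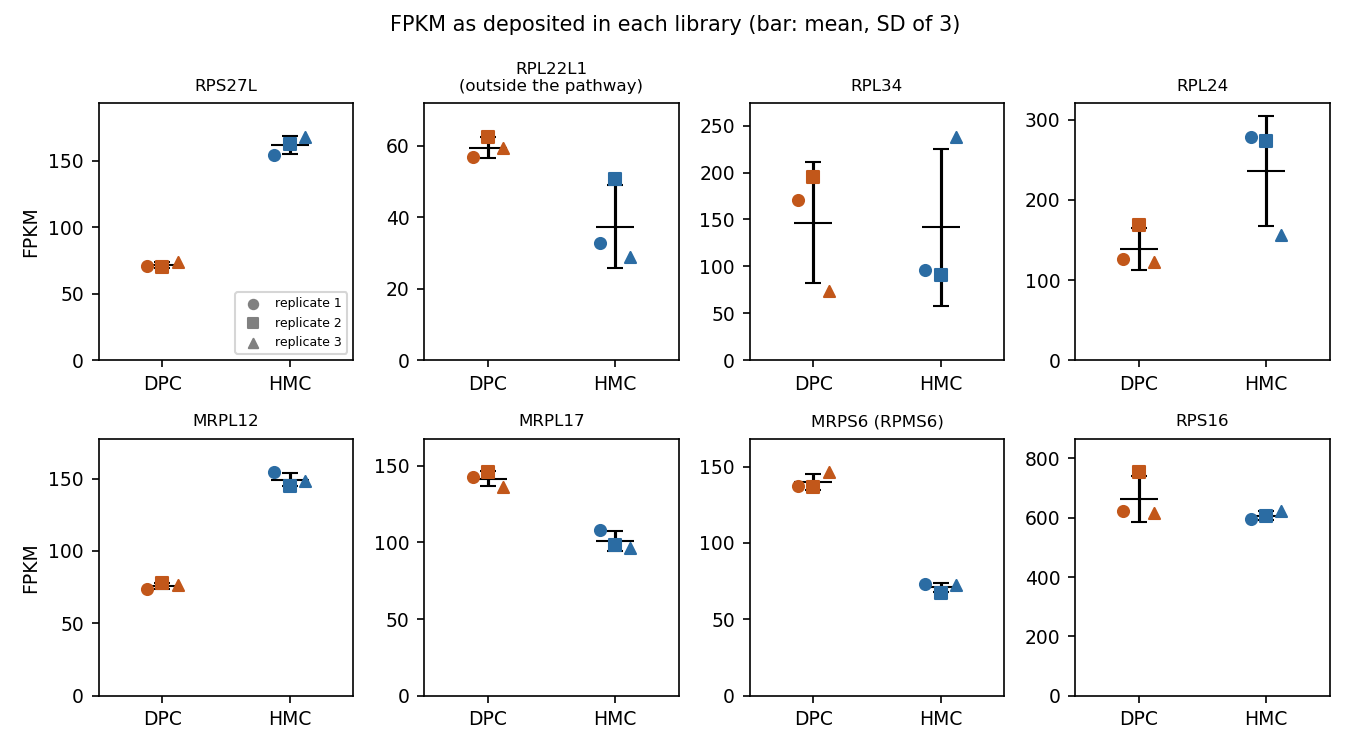
FPKM as deposited in each library for 8 members or close relatives, DPC left and HMC right, with marker shapes for the replicate number and the mean and SD of 3 as black bars. RPS27L and MRPL12 separate toward HMC and RPL22L1, MRPL17 and MRPS6 toward DPC, while RPL34 and RPS16 overlap and RPL24 has 1 HMC library among the DPC values.

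Libraries were also scaled to the leading cytosolic rows alone, a choice made after the data were seen. This sets their typical difference near 0 by construction, so calls in both directions follow from the scaling. Of the 69 leading rows, 37 were then called, 20 (29.0%) higher in DPC and 17 (24.6%) higher in HMC. Both shares lie under the background of 49.7% of all genes called higher in DPC and 27.2% higher in HMC, 77% in all. Relative to the typical cytosolic protein, RPS16 was higher in DPC by 0.53 and RPL37A by 0.38 on the log2 scale, while RPS27L was at -0.76 and RPL35A, averaging 3.75 FPKM in DPC against 7.23 FPKM in HMC, at -0.46. The log2 difference of a leading row had a Spearman correlation of 0.0867 with its log2 mean FPKM over the 69 rows, which share the same libraries.

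The further rows of the cytosolic symbols were mixed. Of 65 tested, 2 (3.08%) were higher in DPC and 24 (36.9%) higher in HMC, with a median of -0.24. Both shares lie under the 29.7% and 46.2% of all genes. Of the 22 that averaged at least 20 FPKM, 16 were higher in HMC, with a median of -0.39. Of the 43 below that level, 2 were higher in DPC and 8 higher in HMC, with a median of -0.13. On the scale of log2(FPKM + 1) differences of such low rows are understated, and their SE was larger, with a median of 0.14 over the further rows against 0.037 over the leading rows. A copy of RPL39 (ENSBGRG00000026166) at 1.12 ± 0.266 FPKM in DPC against 2.76 ± 0.826 FPKM in HMC was called toward HMC (log2 difference -0.81, limma adjusted p = 0.00198) and lost its call by voom on the recovered reads (limma adjusted p = 0.0845).

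Of the members with other symbols 19 were tested, and 2 were higher in DPC and 11 higher in HMC. These are shares of 10.5% and 57.9%, against 29.7% and 46.2% of all genes. The counts were 2 and 10 after median-of-ratios scaling, and 3 and 7 on the TPM scale and after quantile normalization. RPSA (Lamr1), a small subunit protein also known as a laminin receptor, stood at 1396 ± 8.33 FPKM in DPC against 1784 ± 73.5 FPKM in HMC (log2 difference -0.35, limma adjusted p = 2.08e-05). RPL10 (QM), which joins the large subunit late in its assembly, stood at 755, 735 and 695 FPKM in DPC against 1225, 1245 and 1056 FPKM in HMC (log2 difference -0.69, limma adjusted p = 1.94e-05). RPS27A (UBA80), in which ubiquitin is fused to a small subunit protein, stood at 849 ± 19.0 FPKM in DPC against 1073 ± 23.9 FPKM in HMC (log2 difference -0.34). RPS3A (FTE1) had 796 ± 24.7 FPKM in DPC against 1030 ± 29.9 FPKM in HMC (log2 difference -0.37).

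Cytosolic symbols outside the pathway gave like values. Of 12 tested rows, 2, the paralogs RPL22L1 and RPL7L1, were higher in DPC and 8 higher in HMC. These are shares of 16.7% and 66.7%, against 29.7% and 46.2% of all genes. The count higher in HMC was 6 after median-of-ratios scaling and 4 on the TPM scale and after quantile normalization. RPL4 stood at 519 ± 0.599 FPKM in DPC against 763 ± 3.55 FPKM in HMC (log2 difference -0.56, limma adjusted p = 2e-07), and RPL37 at 1009 ± 21.1 FPKM in DPC against 1456 ± 88.3 FPKM in HMC (log2 difference -0.53). RPL12, whose pathway row averaged 14.2 FPKM in DPC against 14.9 FPKM in HMC, had its main row at 825 ± 19.4 FPKM in DPC against 1013 ± 52.3 FPKM in HMC (log2 difference -0.29, limma adjusted p = 0.00024). This row of RPL12 did not pass on the TPM scale (-0.061, limma adjusted p = 0.190) or after quantile normalization (-0.068, limma adjusted p = 0.181). RPL39, whose pathway row did not pass, had its main row at 51.8 ± 3.67 FPKM in DPC against 63.4 ± 7.47 FPKM in HMC. That row passed with FPKM as deposited (log2 difference -0.28, limma adjusted p = 0.0182) but not after median-of-ratios scaling (-0.13, limma adjusted p = 0.230). With 75 cytosolic ribosomal proteins matched by their current name or an older one, 0 were higher in DPC and 66 higher in HMC, with a median of -0.37. These counts were 1 and 53 after median-of-ratios scaling, 4 and 43 on the TPM scale, and 4 and 44 after quantile normalization. The medians were -0.21, -0.14 and -0.14 in that order. This list shares most of its rows with the members.

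Mitochondrial ribosomal protein mRNA was much less abundant and split in both directions. The summed FPKM of the 36 rows was 1325, 1319 and 1329 in DPC, against 1614, 1654 and 1638 in HMC. The groups did not overlap, with means of 1324 ± 4.99 in DPC and 1635 ± 20.4 in HMC (SD, n = 3 each), 1.23 times as high in HMC. After median-of-ratios scaling the sums were 1393 ± 6.38 in DPC and 1544 ± 12.2 in HMC, 1.11 times as high in HMC, and the share of all FPKM was 0.240% in DPC and 0.252% in HMC. Gene by gene, 5 of the 36 rows were higher in DPC and 16 higher in HMC, shares of 13.9% and 44.4%, with a median log2 difference of -0.15, against -0.15 for all tested genes. The share higher in HMC is close to the background of 46.2%. Without HMC replicate 1 the count higher in DPC was 3.

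After median-of-ratios scaling 9 mitochondrial rows were higher in DPC and 13 higher in HMC. These are shares of 25% and 36.1%, against 36.3% and 38% of all genes. The median of the mitochondrial rows was -0.0055, against -0.018 for all genes. The mitochondrial median turned to 0.069 on the TPM scale and 0.040 after quantile normalization, so the sign of the median over these 36 rows depended on the scaling. The median of all tested genes changed sign as well, to 0.053 and 0.048. For single proteins, the rows called the same way under all 4 scalings were 5 higher in DPC and 9 higher in HMC. No share of all genes was computed for these counts. The mitochondrial differences were spread more widely than those of the cytosolic leading rows, with an SD of 0.41 on the log2 scale against 0.22. This SD was 0.32 over the further cytosolic rows and 1.45 over all tested genes. The SE of the mitochondrial rows was also larger than that of the leading rows, with a median of 0.072 against 0.037.

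The ratio of cytosolic to mitochondrial FPKM, which a single factor per library cannot change, was 33.5, 34.2 and 33.4 in DPC, against 36.1, 34.9 and 35.4 in HMC, 33.7 ± 0.419 in DPC and 35.5 ± 0.633 in HMC (SD, n = 3 each). The groups did not overlap, but the ratio rests on which genes the pathway entry holds. With 75 cytosolic and 74 mitochondrial ribosomal proteins matched by name it was 17.0, 17.5 and 16.8 in DPC against 17.6, 17.1 and 17.3 in HMC, and the groups overlapped.

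In the large mitochondrial subunit, 4 of 26 rows were higher in DPC and 12 higher in HMC. These are shares of 15.4% and 46.2%, against 29.7% and 46.2% of all genes. MRPL34 stood at 52.3, 52.9 and 49.2 FPKM in DPC against 107, 108 and 108 FPKM in HMC, the only mitochondrial member called with a difference of at least 2-fold (log2 difference -1.05, SE 0.04, limma adjusted p = 9.7e-08). MRPL12, the stalk protein of the mitochondrial ribosome, which also binds the mitochondrial RNA polymerase, stood at 73.6, 77.6 and 76.6 FPKM in DPC against 154, 145 and 148 FPKM in HMC (log2 difference -0.97, SE 0.04, limma adjusted p = 1.41e-07). Mrpl36, the most abundant mitochondrial member, stood at 159, 152 and 166 FPKM in DPC against 298, 298 and 281 FPKM in HMC (log2 difference -0.87, limma adjusted p = 4e-07). In all of them the DPC libraries lay close together and far below the HMC libraries. MRPL3, at 26.7 ± 1.41 FPKM in DPC against 43.8 ± 2.97 FPKM in HMC, had a log2 difference of -0.69 (limma adjusted p = 2.04e-05).

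The opposite direction was led by MRPL17, a large subunit protein with 2 rows. The more abundant row stood at 143, 146 and 136 FPKM in DPC against 108, 98.5 and 96.1 FPKM in HMC (log2 difference 0.49, SE 0.05, limma adjusted p = 5.16e-05). The other stood at 52.9, 46.1 and 48.8 FPKM in DPC against 28.7, 32.8 and 34.3 FPKM in HMC (log2 difference 0.61, limma adjusted p = 0.000145). In both rows every DPC library was above every HMC library. MRPL13 stood at 39.3, 27.0 and 27.3 FPKM in DPC against 21.8, 22.3 and 23.4 FPKM in HMC, with DPC replicate 1 far above the rest (log2 difference 0.43, limma adjusted p = 0.0176), and without HMC replicate 1 it did not pass (limma adjusted p = 0.0546). MRPL24 stood at 13.2, 17.9 and 25.8 FPKM in DPC against 11.1, 12.1 and 14.4 FPKM in HMC, values that overlap (log2 difference 0.52, limma adjusted p = 0.0490). MRPL24 lost its call when any replicate other than DPC replicate 1 was left out, with adjusted p-values from 0.0528 without HMC replicate 3 to 0.142 without HMC replicate 1, and by voom on the recovered reads (limma adjusted p = 0.0513). Without DPC replicate 3 the difference of MRPL24 was 0.29 (limma adjusted p = 0.122). Its call was also lost with a pseudocount of 0.1 (limma adjusted p = 0.0543), with no filter (limma adjusted p = 0.0812) and with no trend (limma adjusted p = 0.0656).

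In the small mitochondrial subunit, 1 of 10 rows was higher in DPC and 4 were higher in HMC. These are shares of 10% and 40%, against 29.7% and 46.2% of all genes. MRPS14 stood at 61.6, 61.9 and 65.6 FPKM in DPC against 83.8, 87.4 and 90.4 FPKM in HMC (log2 difference -0.46, SE 0.05, limma adjusted p = 3.48e-05). MRPS2, MRPS9 and MRPS7 had log2 differences of -0.33, -0.33 and -0.30, which after median-of-ratios scaling were -0.17, -0.18 and -0.15 and still passed the threshold, but not on the TPM scale (limma adjusted p = 0.101, 0.153 and 0.261) or after quantile normalization (limma adjusted p = 0.460, 0.102 and 0.199). MRPS10 stood at 45.1, 46.1 and 42.6 FPKM in DPC against 34.7, 36.6 and 40.1 FPKM in HMC, with no overlap (log2 difference 0.26, limma adjusted p = 0.00569). MRPS12, a protein of the decoding center, was level at 47.8 ± 3.31 FPKM in DPC against 48.9 ± 1.28 FPKM in HMC (log2 difference -0.03, SE 0.06, limma adjusted p = 0.614).

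**Figure D5:**
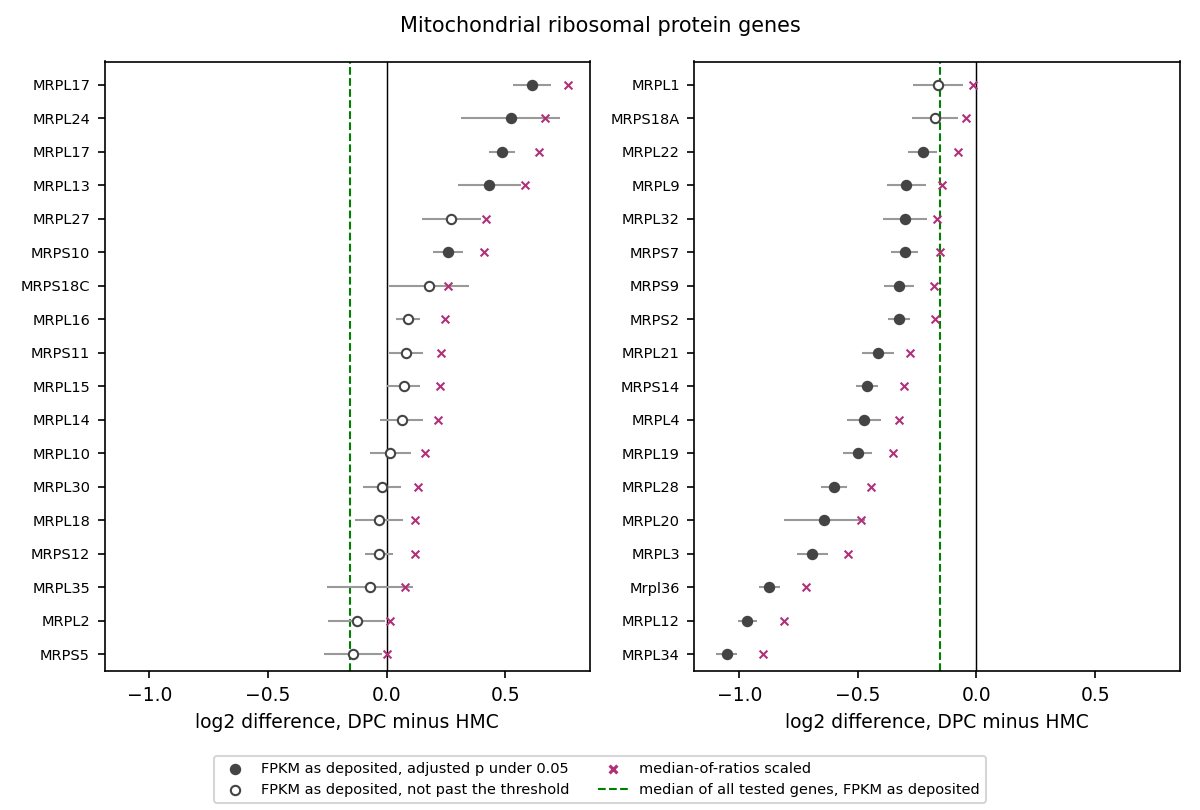
The log2 difference (DPC minus HMC) of the 36 mitochondrial ribosomal protein rows from highest to lowest, first down the left column and then the right, with SE bars. Filled circles passed the threshold, crosses are values after median-of-ratios scaling, and the rows run from 0.61 for MRPL17 to -1.05 for MRPL34.

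The largest mitochondrial difference toward DPC stood under an older symbol. MRPS6 (RPMS6), a small subunit protein, was at 137, 137 and 146 FPKM in DPC against 72.9, 67.5 and 72.5 FPKM in HMC, 1.97 times as high in DPC, with groups far apart for their spread (log2 difference 0.97, SE 0.05, limma adjusted p = 3.43e-07). MRPS17 (RPMS17) was also higher in DPC, at 9.45 ± 0.22 FPKM in DPC against 6.59 ± 0.766 FPKM in HMC (log2 difference 0.47, limma adjusted p = 0.0012). MRPS21 (RPMS21) and MRPL23 (L23mrp) were lower in DPC, with log2 differences of -0.37 and -0.63. MRPS21 did not pass after quantile normalization (limma adjusted p = 0.328). MRPS16 (RPMS16) did not pass the threshold (log2 difference -0.08, limma adjusted p = 0.192).

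Mitochondrial ribosomal proteins outside the pathway were mostly higher in HMC where called. Of 33 tested rows, 3 (9.09%) were higher in DPC and 22 (66.7%) higher in HMC, against 29.7% and 46.2% of all genes, with a median of -0.33. The counts were 5 and 17 after median-of-ratios scaling, 5 and 15 on the TPM scale, and 5 and 13 after quantile normalization. The medians were -0.17, -0.10 and -0.079 in that order. After quantile normalization the share higher in HMC was 39.4%, against 34.3% of all genes. MRPL55 stood at 67.3, 59.3 and 62.3 FPKM in DPC against 139, 153 and 148 FPKM in HMC (log2 difference -1.21, SE 0.06, limma adjusted p = 2.96e-07). MRPL52 went the other way as clearly, at 57.4, 60.3 and 57.4 FPKM in DPC against 32.3, 34.3 and 32.8 FPKM in HMC (log2 difference 0.80, SE 0.05, limma adjusted p = 1.03e-06). With 74 of 82 mitochondrial ribosomal proteins matched by name, 9 were higher in DPC and 43 higher in HMC, shares of 12.2% and 58.1%, with a median of -0.29. After median-of-ratios scaling these counts were 15 and 33, with a median of -0.15. They were 19 and 27 on the TPM scale and 20 and 23 after quantile normalization. In the latter the share higher in HMC was 31.1%, under the 34.3% of all genes. The median by name was -0.072 on the TPM scale and -0.047 after quantile normalization, below 0 under all 4 scalings, unlike that of the 36 pathway rows.

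Genes that work with the ribosome were taken from lists by function. Their counts with FPKM as deposited stand beside a background of 29.7% of all tested genes higher in DPC and 46.2% higher in HMC. The counts moved with the scaling, and so did this background. It was 36.3% and 38% after median-of-ratios scaling, 40.1% and 34.3% on the TPM scale, and 39.9% and 34.3% after quantile normalization. Of 34 tested initiation factors, 2 were higher in DPC and 21, or 61.8%, higher in HMC, with a median of -0.36. The counts higher in DPC and in HMC were 5 and 20 after median-of-ratios scaling, 9 and 17 on the TPM scale, and 11 and 15 after quantile normalization, where the median was -0.10. EIF3B, a scaffold subunit of the factor eIF3, was the main exception, with 220, 215 and 226 FPKM in DPC against 105, 109 and 120 FPKM in HMC (log2 difference 0.98, SE 0.05, limma adjusted p = 6.12e-07). EIF4B, the cofactor of the eIF4A helicase, had the largest difference toward HMC, at 78.9 FPKM in DPC against 140 FPKM in HMC (log2 difference -0.81, limma adjusted p = 6.32e-06). The elongation and release list holds the kinase EEF2K beside the factors. All 8 of its tested genes were higher in HMC, with a median of -0.45. The count was 7 after median-of-ratios scaling and 6 on the TPM scale and after quantile normalization. EEF1A1 (EEF1A), which carries aminoacyl-tRNA to the ribosome, stood at 4745 FPKM in DPC against 6386 FPKM in HMC (log2 difference -0.43, limma adjusted p = 3.93e-06), and the release factor ETF1 had a log2 difference of -0.69.

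Other mRNAs with a 5′ terminal oligopyrimidine tract had 1 of 21 genes higher in DPC and 19, or 90.5%, higher in HMC, with a median of -0.37. The count higher in HMC was 15 after median-of-ratios scaling, 12 on the TPM scale and 10 after quantile normalization, where the median was -0.10. This list shares FAU with the members and several genes with the factor lists. The gene higher in DPC was VIM, the mesenchymal intermediate filament (log2 difference 3.85). PABPC1 (PABP1), the poly(A)-binding protein, was at 476, 446 and 468 FPKM in DPC against 951, 968 and 1069 FPKM in HMC (log2 difference -1.10, SE 0.05, limma adjusted p = 1.77e-07).

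Ribosome biogenesis genes were called in both directions. Of 51 tested, 7 were higher in DPC and 18 higher in HMC, shares of 13.7% and 35.3% that both lie under the background, with a median of -0.12. After median-of-ratios scaling 15 were higher in DPC and 8 higher in HMC, with a median of 0.029. The counts were 18 and 6 on the TPM scale (median 0.11) and 20 and 7 after quantile normalization (median 0.15). The sign of the median therefore depended on the scaling. EIF6, which keeps the large subunit from joining early, had a log2 difference of -0.96, and NOLC1, a nucleolar snoRNP chaperone, one of -0.62. LSG1, a GTPase of late large subunit maturation, and NAT10, which acetylates ribosomal RNA, were higher in DPC by 0.67 and 0.65. NPM1, the most abundant gene of the list, had a difference of -0.31, which did not pass on the TPM scale (-0.079, limma adjusted p = 0.218). The RNA polymerase I list had 3 of 17 genes higher in DPC and 7 higher in HMC, shares of 17.6% and 41.2%, both under the background. These counts were 6 and 5 after median-of-ratios scaling, 7 and 2 on the TPM scale, and 6 and 2 after quantile normalization. TAF1A led in one direction at 0.48 and POLR1B (Rpa2) in the other at -0.67. The call of TAF1A was lost without DPC replicate 2 (limma adjusted p = 0.0656).

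Mitochondrial translation factors and assembly genes had 2 of 22 higher in DPC and 8 higher in HMC, shares of 9.09% and 36.4%, both under the background, with a median of -0.13. The counts were 5 and 5 after median-of-ratios scaling and after quantile normalization, and 6 and 5 on the TPM scale. TUFM, the mitochondrial elongation factor Tu, stood at 39.0 FPKM in DPC against 77.6 FPKM in HMC (log2 difference -0.98, limma adjusted p = 1.33e-05). YBEY (C21orf57), an RNase, and ERAL1, which helps assemble the small subunit, were higher in DPC by 0.66 and 0.36.

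Regulators of ribosomal protein synthesis were called in both directions, with 2 of 10 tested higher in DPC and 6 higher in HMC. These counts were 4 and 6 after median-of-ratios, TPM and quantile scaling. MYC stood at 66.1, 63.2 and 67.2 FPKM in DPC against 136, 145 and 155 FPKM in HMC (log2 difference -1.14, SE 0.05, limma adjusted p = 2.68e-07), with no overlap. MXD1 (MAD), a repressor that shares the partner of MYC, was also higher in HMC, at 1.91 FPKM in DPC against 8.85 FPKM in HMC (log2 difference -1.77, limma adjusted p = 6.92e-06). MTOR (FRAP) averaged 13.7 FPKM in DPC against 29.0 FPKM in HMC (log2 difference -1.03). LARP1 (KIAA0731) had a difference of 0.13 (limma adjusted p = 0.0282) and lost its call without DPC replicate 2 (limma adjusted p = 0.0706), DPC replicate 3 (limma adjusted p = 0.0967), HMC replicate 1 (limma adjusted p = 0.0607) or HMC replicate 2 (limma adjusted p = 0.0671). EIF4EBP2, a repressor of cap-dependent initiation downstream of mTOR, had a log2 difference of -0.84.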

How the data were processed

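Poly(A) RNA of 3 DPC and 3 HMC samples was sequenced from stranded libraries, per the labels' protocols. The authors deposited FPKM values, in a table with a row per gene and a column per sample. Per the submitters' processing notes, Trimmomatic, HISAT2 (2.2.1.0) and DESeq (1.20.0) were used. The sources used here do not name the genome build, the annotation or the read counter. No coordinates or sequences are therefore printed, and miRNA is not analysed here. Low values were whole multiples of a step per gene, which gave whole reads for 100% of genes within 0.02 of a whole number. They summed to 13098760 to 13999664 per library, known up to a common factor per gene.

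DPC minus HMC was fitted by limma (3.58.1, under R 4.3.3) to log2(FPKM + 1) with a trended prior variance. The fit took in the 11883 genes whose mean FPKM reached 0.5. Tests are two-sided, with Benjamini-Hochberg adjustment over all tested genes and a threshold of 0.05. Sums and lists are described by values and counts, without a test. Median-of-ratios size factors lay between 0.948 and 1.07. The procedure was tested on simulated data with few changed genes, unlike the real data, in which 75.9% of tested genes were called. The share of false calls there was above the nominal threshold, so calls near it may be less certain than the adjusted p states. That share was not simulated for a table with many changed genes. The other steps used Python 3.11.15 with numpy 2.4.6, pandas 2.3.3 and matplotlib 3.10.9.

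Symbols were matched whatever their case. Older symbols were read against the annotation of the table after its values were seen, and stand in parentheses after the current one. Members, lists and tests were chosen with earlier results of these data known. The genes named by rule are, in each of 4 classes (large and small, cytosolic and mitochondrial), up to 4 called members of largest difference per direction and the 2 most abundant, then paralogs, the MDM2 binders, the stalk, and in each list the 2 of largest difference per direction and the most abundant. Other names, such as the rows that did not pass, RPL24, RPL28 or MTOR, were chosen after their values were seen. Alternatives were median-of-ratios, TPM and quantile scaling, a pseudocount of 0.1, no filter, a filter at 5 FPKM, no trend, voom on the recovered reads, a replicate block and leaving out every sample in turn. Scaling to the cytosolic ribosomal members was added after seeing the data. A few members and list genes that were fitted and counted are not reported here by name.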

Additional observations from a re-analysis of the deposited data

How the results depend on the processing

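Scaling between libraries moved counts and medians. Over all tested genes the median log2 difference was -0.018 after median-of-ratios scaling, 0.053 on the TPM scale, 0.048 after quantile normalization, -0.17 with a pseudocount of 0.1, -0.055 with no filter, -0.19 with a filter at 5 FPKM and -0.18 by voom on the recovered reads. Cytosolic rows higher in DPC numbered 5, 9 and 11 after median-of-ratios, TPM and quantile scaling, 0 with a filter at 5 FPKM and 1 by voom, and those higher in HMC 51 and 52 on the TPM and quantile scales. The cytosolic median was -0.18, -0.10 and -0.10 under these scalings. Mitochondrial rows higher in DPC numbered 9, 12 and 13 and their median was -0.0055, 0.069 and 0.040 in the same order, and 9 rows were higher in HMC on the TPM and on the quantile scale. The log2 ratio of the cytosolic sums (DPC over HMC) was -0.22, -0.14 and -0.17 and that of the mitochondrial sums -0.15, -0.071 and -0.033, and that of the cytosolic over mitochondrial ratio was -0.14 after quantile normalization. The oligopyrimidine tract list had 12 genes called after quantile normalization.

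Scaling to the cytosolic members sets their typical difference near 0 by construction. With it 5911 genes were higher in DPC and 3238 higher in HMC, with a median of 0.21. Cytosolic rows then split into 30 higher in DPC and 26 higher in HMC (median 0.068) and mitochondrial rows into 15 and 5 (median 0.24). Called genes numbered 39 for biogenesis, 4 for elongation and release, 11 for the oligopyrimidine tract list and 40 for cytosolic ribosomal proteins by name. Differences changed sign for RPLP1 (0.14), MRPS2 (0.080), MRPS9 (0.063), MRPS7 (0.093), RPL5 (0.055), Rpl23 (0.083), RPLP0 (0.16), D11S2243E (0.039), NPM1 (0.10), POLR1H (0.094) and DDX2A (0.12).

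Samples with the same replicate number shared almost no variation, with correlations of their deviations of 0.023, 0.0337 and 0.00635. Such low values over all tested genes cannot settle whether equal numbers mark samples of a shared origin. With the replicate block 4 cytosolic rows were higher in DPC, and D11S2243E passed the threshold (-0.37, limma adjusted p = 0.00296). DPC replicates 1 and 2 correlated best with the HMC sample of their own number, and DPC replicate 3 with HMC replicate 2 (0.00681).

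With each replicate left out in turn, all-gene counts were 3319 to 3442 higher in DPC and 5227 to 5346 higher in HMC, with medians of -0.16 to -0.15. Cytosolic counts were 1 to 4 and 80 to 88, with medians of -0.35 to -0.31, and mitochondrial counts 3 to 5 and 16 to 17, with medians of -0.23 to -0.12. Of the 66 named genes with a fit, over all 16 alternatives, 990 values kept direction and side of the threshold, 45 no longer passed, 3 newly passed and 11, listed above, changed sign. Depth limits the low copies of cytosolic genes, which averaged few FPKM, and near-identical copies cannot be told apart by these values.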
